A study of Mus musculus with 8 samples.

Results

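The 9 genes described here encode NADPH oxidases, their subunits and 1 maturation factor in mouse distal colon. They were picked by name from the 55418 gene symbols of the deposited table: Nox1, Noxo1, Noxa1, Duox2, Duoxa2, Cyba, Cybb, Ncf1 and Ncf4. All 9 passed the filter on low counts, as did 17522 genes in all. Nox1 was chosen because its level differed between the genotypes in these same libraries, so its values are given as a description, without a test.

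NADPH oxidases are membrane enzymes that pass electrons from NADPH inside the cell to oxygen on the other side, giving superoxide or hydrogen peroxide. Nox1 is the form of colon epithelium and works with the membrane partner Cyba (p22phox), the organizer Noxo1 and the activator Noxa1. Duox2 releases hydrogen peroxide at the surface of gut epithelium and needs Duoxa2 to leave the endoplasmic reticulum. Cybb (gp91phox) is the catalytic subunit of the phagocyte oxidase, which also contains Cyba and cytosolic subunits that include Ncf1 (p47phox) and Ncf4 (p40phox). The set therefore joins epithelial oxidases with a phagocyte oxidase.

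The libraries came from 4 groups of 2 C57BL/6 mice aged 8 to 10 weeks: NAIL-ΔNFκB mice given DSS, wild-type (WT) mice given DSS, untreated NAIL-ΔNFκB mice and untreated WT mice. NAIL is a long noncoding RNA, and ΔNFκB is the labels' name for the altered allele; which bases differ is not given in the sources used here. Dextran sulfate sodium (DSS), which injures the colon epithelium, was drunk at 3% over 4 days, and plain water was given on the next 4. The study asks how NAIL acts in colon inflammation. Total RNA of whole distal colon was read, so fewer cells of a type and less RNA per cell cannot be told apart.

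Library totals ran from 9229861 to 16935961 counts. Y-linked transcripts showed that both untreated ΔNFκB mice and WT untreated replicate 2 were male and that the other 5 mice were female. DSS and sex cannot be told apart in ΔNFκB mice, and in WT mice only 1 untreated mouse was female. Only untreated WT mice held both sexes, so a sex term below rests on the difference between those 2 mice. It carries that difference over to the untreated ΔNFκB mice. The share of ribosomal RNA-like transcripts was 3.46% to 6.70% in DSS mice, against 0.687% to 1.83% in untreated mice. The 10 pan-epithelial markers, among them Epcam, Cdh1 and Krt8, summed to 8348 to 14952 CPM (counts relative to library size, with TMM scaling), and 0 of them were at 0 in every library of any group. Gm16685, the mouse NAIL gene from general knowledge, had 5.63 and 8.86 CPM in ΔNFκB DSS mice and 5.50 and 11.5 CPM in WT DSS mice. It had 0.237 and 0.325 CPM in untreated ΔNFκB mice and 0.240 and 1.34 CPM in untreated WT mice. A count over the whole gene does not check the altered allele.

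Changes below are log2 fold changes ± SE from 1 edgeR quasi-likelihood fit of all 8 libraries, with Benjamini-Hochberg adjusted p over all 17522 genes and 0.05 as the threshold. Over all genes tested, 16.2% rose and 19.2% fell with DSS in ΔNFκB mice, and 17.2% rose and 18.8% fell in WT mice. Between the genotypes, 8.32% were higher and 11.7% lower in ΔNFκB mice after DSS, and 0.0399% and 0.348% without DSS. Counts within the lists below stand beside these shares. Group levels are mean CPM ± SD with n = 2 mice. Nothing in the labels gives littermates or shared cages, so the p-values measure only the spread between these mice.

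Nox1, on the minus strand of chromosome X (134086421 to 134221956 in mm10), moved in opposite directions with DSS in the 2 genotypes. Its level was 119 and 138 CPM in ΔNFκB DSS mice, 25.9 and 21.3 CPM in WT DSS mice, 25.6 and 36.5 CPM in untreated ΔNFκB mice and 77.4 and 69.3 CPM in untreated WT mice. ΔNFκB DSS mice stood highest and untreated WT mice next, and neither of these groups overlapped with any other. WT DSS and untreated ΔNFκB mice shared the lowest range and overlapped.

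The group means of Nox1 were 128 ± 14.0 CPM in ΔNFκB DSS mice, 23.6 ± 3.21 in WT DSS mice, 31.0 ± 7.76 in untreated ΔNFκB mice and 73.4 ± 5.77 in untreated WT mice. With DSS the fitted change was 2.05 ± 0.19 in ΔNFκB mice and -1.64 ± 0.19 in WT mice, on the log2 scale. Between the genotypes it was 2.44 ± 0.19 after DSS, which is 5.44-fold, and -1.24 ± 0.18 without DSS. These values chose the gene and carry no test. Leaving out any 1 library kept every sign, with DSS changes of 1.83 to 2.35 for ΔNFκB and -1.79 to -1.51 for WT. The choice of the gene favours such steadiness, so these ranges are a description and no support for the pattern. Without the male WT mouse the WT change was -1.68. Of the exon bases of Nox1, 12.1% overlap Cstf2 on the other strand. Cstf2, an RNA 3′ end processing factor, averaged 56.7 ± 0.926 CPM in ΔNFκB DSS mice, 46.9 ± 3.02 in WT DSS mice, 41.8 ± 6.12 in untreated ΔNFκB mice and 51.0 ± 4.76 in untreated WT mice.

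**Figure D1:**
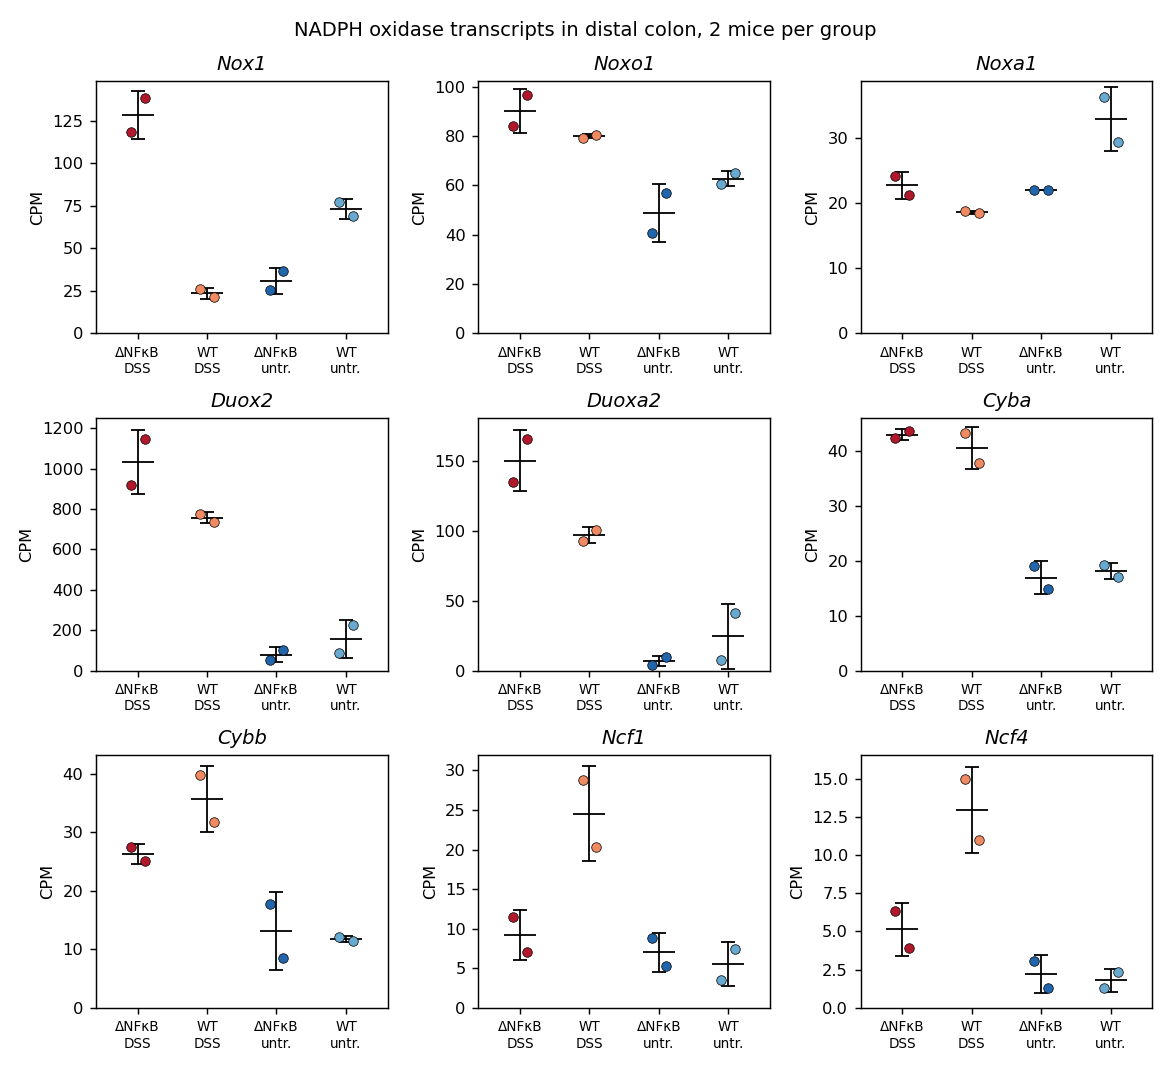
Level of each of the 9 genes in CPM (vertical axis, linear from 0), with 1 point per mouse and the mean ± SD of the 2 mice of a group. Nox1 is highest in ΔNFκB DSS mice (119 and 138 CPM) and low in WT DSS mice (25.9 and 21.3 CPM) and untreated ΔNFκB mice (25.6 and 36.5 CPM), whereas Duox2, Duoxa2 and Cyba are high in both DSS groups.

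Epithelial markers were read beside Nox1 in each library. The summed pan-epithelial markers were 11495 and 12125 CPM in ΔNFκB DSS mice, 8943 and 8348 in WT DSS mice, 10758 and 12110 in untreated ΔNFκB mice, and 12028 and 14952 in untreated WT mice. With DSS 1 of these 10 markers rose and 0 fell in ΔNFκB mice (2 and 1 at an unadjusted edgeR p under 0.05), and 0 rose and 8 fell in WT mice. Per 1000 CPM of these markers, Nox1 stood at 10.3 and 11.4 CPM in ΔNFκB DSS mice, 2.89 and 2.56 in WT DSS mice, 2.38 and 3.02 in untreated ΔNFκB mice, and 6.44 and 4.63 in untreated WT mice. ΔNFκB DSS mice were again highest and untreated WT mice next, and the other 2 groups overlapped. On this scale the mean log2 difference with DSS was 2.02 in ΔNFκB mice and -1.01 in WT mice.

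Markers of dividing cells and of the crypt base did not move as 1 list. The 8 markers, among them Lgr5, a stem cell receptor, and Mki67, a marker of dividing cells, summed to 955 and 1017 CPM in ΔNFκB DSS mice, 616 and 573 in WT DSS mice, 514 and 536 in untreated ΔNFκB mice, and 953 and 974 in untreated WT mice. Of the 7 tested, 3 were higher and 0 lower with DSS in ΔNFκB mice, and 0 were higher and 5 lower in WT mice. The 3 that rose in ΔNFκB mice were the cell division genes Mki67, Top2a and Ccnb1, by 0.98 to 1.42, and these 3 fell in WT mice (-0.66, -0.72 and -0.66 for Mki67, Top2a and Ccnb1). The crypt base marker Lgr5 stood at -0.90 ± 0.50 in ΔNFκB mice (adjusted p 0.194) and fell in WT mice. The medians over the 7 were -0.57 in ΔNFκB mice and -0.72 in WT mice, so the median in ΔNFκB mice has the opposite sign to the sum. The sums of ΔNFκB DSS and untreated WT mice overlapped, unlike those groups' Nox1 levels. Between the genotypes 4 of the 7 were higher after DSS (8.32% of all genes tested), and 3 were lower without DSS (0.348%). Goblet cell markers summed to 9067 to 10948 CPM in ΔNFκB DSS mice and 3180 to 3977 CPM in WT DSS mice, against 15699 to 17378 in untreated ΔNFκB mice and 18725 to 26391 in untreated WT mice. The part of these cell types in the Nox1 values was not tested.

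Genes with a profile near that of Nox1 over the 8 libraries included Nat8f4, Muc4, Fgfbp1 and Idi1, in that order. Nearness was the root mean square difference of log2(CPM + 0.5) after centring each gene, among 11411 genes with a mean log2 value above 2. It was 0.44 for Nat8f4, 0.45 for Muc4, 0.48 for Fgfbp1 and 0.49 for Idi1, an enzyme of isoprenoid synthesis; the SD of Nox1 itself was 1.05. Muc4, a transmembrane mucin, averaged 407 ± 10.4 CPM in ΔNFκB DSS mice, 90.7 ± 2.97 in WT DSS mice, 197 ± 22.4 in untreated ΔNFκB mice and 325 ± 68.8 in untreated WT mice. The cytosolic partners Noxa1 and Noxo1 lay farther from Nox1, at 0.87 and 0.88.

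Noxo1 is the scaffold that brings the activator to Nox1. Noxo1 had 83.9 and 96.6 CPM in ΔNFκB DSS mice, 79.4 and 80.5 in WT DSS mice, 40.5 and 57.0 in untreated ΔNFκB mice, and 60.5 and 64.9 in untreated WT mice. Both DSS groups lay above both untreated groups. Noxo1 rose with DSS in ΔNFκB mice by 0.89 ± 0.16 (adjusted p 0.00419) and stood at 0.35 ± 0.16 in WT mice (adjusted p 0.120), where it passed without either untreated ΔNFκB library (adjusted p 0.0376 and 0.0377). Per 1000 CPM of epithelial markers the log2 difference of Noxo1 with DSS was 0.86 in ΔNFκB mice and 0.99 in WT mice. The DSS effects differed by 0.54 ± 0.23 (adjusted p 0.133), and by 0.79 without untreated ΔNFκB replicate 2 (adjusted p 0.0381). The genotypes differed by 0.17 ± 0.16 after DSS and by -0.36 ± 0.16 without DSS (adjusted p 0.468 and 0.317), neither past the test. Of the exon bases of Noxo1, 70.4% overlap Tbl3, a ribosome biogenesis gene on the other strand, and strand use in counting is not given, so its counts are uncertain. Tbl3 itself ran from 14.7 to 22.0 CPM over the 8 libraries and passed the test in 0 of the 5 comparisons (unadjusted p 0.0594 to 0.843).

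Noxa1 is the activator of the Nox1 oxidase. It had 24.2 and 21.3 CPM in ΔNFκB DSS mice, 18.8 and 18.5 in WT DSS mice, 22.1 and 22.1 in untreated ΔNFκB mice, and 36.4 and 29.4 in untreated WT mice. Untreated WT mice stood above all other groups. With DSS Noxa1 stood at 0.04 ± 0.15 in ΔNFκB mice (adjusted p 0.851), and it fell in WT mice, with a log2 change of -0.82 ± 0.15 (adjusted p 0.00441). The difference between the DSS effects was 0.86 ± 0.21 and passed the test (adjusted p 0.0294); it did not when any 1 library other than the untreated WT ones was left out (adjusted p 0.0659 to 0.0891). Per 1000 CPM of epithelial markers Noxa1 had 1.93 ± 0.243 CPM in ΔNFκB DSS mice, 2.16 ± 0.0779 in WT DSS mice, 1.94 ± 0.160 in untreated ΔNFκB mice and 2.50 ± 0.748 in untreated WT mice, and on that scale the log2 difference with DSS in WT mice was -0.18.

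The proportion of organizer to oxidase transcripts was read within each library; it contains Nox1 and is a description. Noxo1 counts were 0.708 and 0.698 times those of Nox1 in ΔNFκB DSS mice, 3.07 and 3.77 times in WT DSS mice, 1.59 and 1.56 times in untreated ΔNFκB mice, and 0.781 and 0.936 times in untreated WT mice. A ratio within a library does not depend on the scaling between libraries. The 4 groups did not overlap. Noxa1 was at 0.179 ± 0.0352 times Nox1 in ΔNFκB DSS mice, 0.797 ± 0.0985 in WT DSS mice, 0.735 ± 0.183 in untreated ΔNFκB mice and 0.448 ± 0.0319 in untreated WT mice.

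**Figure D2:**
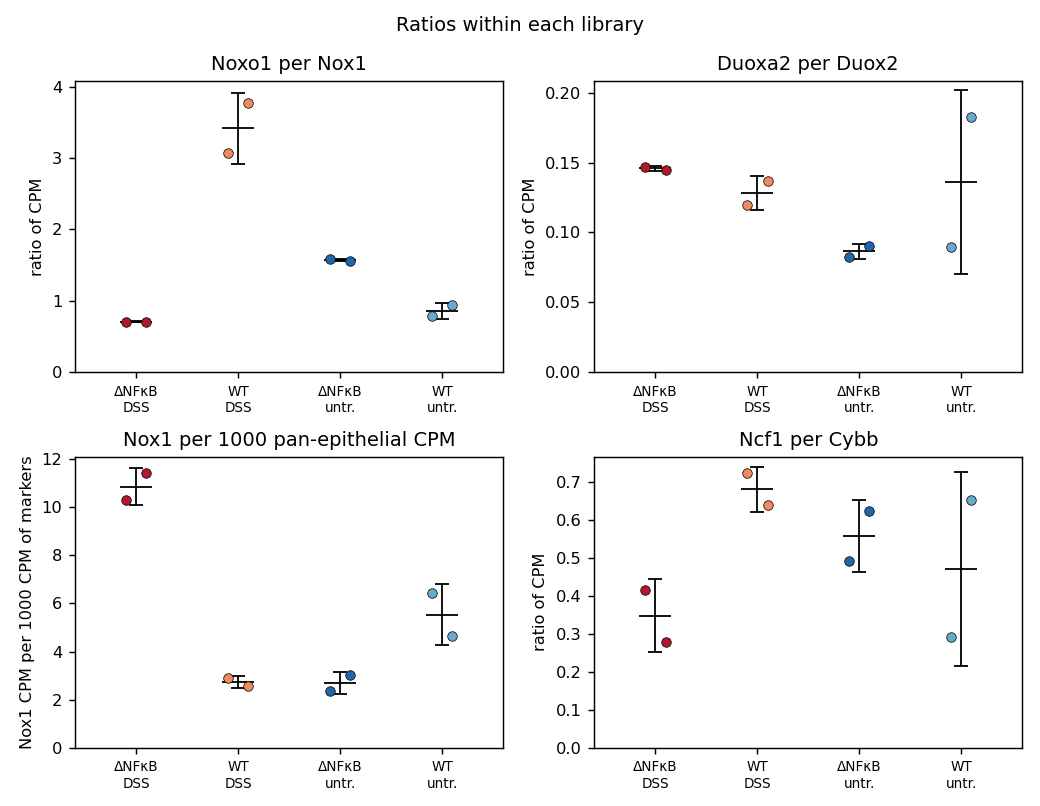
Ratios within each library, with 1 point per mouse and the mean ± SD of the 2 mice of a group; vertical axes are linear from 0. Noxo1 per Nox1 spans 0.698 in a ΔNFκB DSS mouse to 3.77 in a WT DSS mouse, while Duoxa2 per Duox2 spans 0.0827 to 0.183 over all mice.

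Upstream sequences are shown for 1 gene of each oxidase, as the 250 bases before the RefSeq gene start in GRCm38.p6, so that the regions before the starts of the 3 kinds of oxidase gene can be read side by side. Of the 9 members 8 had a window in the RefSeq table, and 6 windows held no annotated exon base. Capitals mark matches to 5 motifs, searched on both strands: the κB consensus, GAS (TTCNNNGAA), ISRE (GAAA, any 2 bases, GAAA), AP-1 (TGANTCA) and the TATA box (TATAAA). The Nox1 window lies on the minus strand of chromosome X (134111855 to 134112104), the Duoxa2 window on the plus strand of chromosome 2 (122298650 to 122298899) and the Cybb window on the minus strand of chromosome X (9469325 to 9469574). The GENCODE annotation used here for gene positions starts Nox1 at 134221956 and Cybb at 9487771. By that annotation the Nox1 and Cybb windows lie inside the genes, and of these 3 windows only that of Duoxa2 lies just before the gene.
Nox1: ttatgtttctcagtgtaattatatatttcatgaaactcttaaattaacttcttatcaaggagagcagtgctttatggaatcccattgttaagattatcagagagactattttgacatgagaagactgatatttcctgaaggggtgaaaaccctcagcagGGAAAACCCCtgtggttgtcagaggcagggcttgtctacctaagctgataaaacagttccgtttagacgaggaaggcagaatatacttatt
Duoxa2: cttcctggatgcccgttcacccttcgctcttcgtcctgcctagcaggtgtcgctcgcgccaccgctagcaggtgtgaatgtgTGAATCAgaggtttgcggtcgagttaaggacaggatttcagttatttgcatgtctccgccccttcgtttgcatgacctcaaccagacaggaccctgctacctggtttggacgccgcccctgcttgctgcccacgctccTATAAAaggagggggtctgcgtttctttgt
Cybb: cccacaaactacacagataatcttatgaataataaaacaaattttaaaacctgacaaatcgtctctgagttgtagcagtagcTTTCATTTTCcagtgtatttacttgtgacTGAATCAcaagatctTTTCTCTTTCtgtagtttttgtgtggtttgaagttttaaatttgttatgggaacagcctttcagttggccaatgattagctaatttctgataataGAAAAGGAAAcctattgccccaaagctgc

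In the Nox1 window the capitals are 1 match to the κB consensus on the minus strand of the window, 82 to 91 bases before the start; 7.2% of all 32817 windows of this length hold one. The Duoxa2 window holds an AP-1 match 162 to 168 bases and a TATA box 25 to 30 bases before the start (6.8% and 12.4% of all windows hold these). The Cybb window holds 3 ISRE matches and 1 AP-1 match, with no overlap between them; 3.0% of windows hold an ISRE match. The windows of Ncf1 and Noxa1, not printed, hold a GAS match overlapping an ISRE match and a κB match that reads on both strands. A match of letters does not show binding, and the searched stretch is short.

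Duox2 and Duoxa2 rose with DSS in both genotypes. The 2 genes lie head to head on chromosome 2, Duox2 at 122279247 to 122298449 on the minus strand and Duoxa2 at 122298900 to 122302885 on the plus strand, with 450 bases between their annotated starts. The Duoxa2 window printed above lies within that interval. Duox2 had 920 and 1146 CPM in ΔNFκB DSS mice, 776 and 738 in WT DSS mice, 52.4 and 104 in untreated ΔNFκB mice, and 88.3 and 225 in untreated WT mice. DSS and untreated mice were far apart, and the untreated genotypes overlapped. The makeup of the tissue RNA differed with DSS too: 8 smooth muscle markers summed to 942 to 963 CPM in ΔNFκB DSS mice, 1093 to 1365 in WT DSS mice, 5837 to 6011 in untreated ΔNFκB mice and 3733 to 7334 in untreated WT mice, and all 8 fell in each genotype. Of 8 absorptive colonocyte markers 1 rose and 5 fell in ΔNFκB mice, and 0 rose and 6 fell in WT mice; their sums were 2373 to 2448 CPM in ΔNFκB DSS mice, 1782 to 1809 in WT DSS mice, 4522 to 5732 in untreated ΔNFκB mice and 5152 to 7466 in untreated WT mice. The part of these shifts in the DSS changes of the oxidase genes was not tested.

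Duox2 rose with DSS by 3.72 ± 0.47 in ΔNFκB mice, which is 13.2-fold, while the WT rise was 2.27 ± 0.44, which is 4.83-fold (adjusted p 0.000904 and 0.00609). The ΔNFκB rise was 4.32 when untreated ΔNFκB replicate 2 was dropped and 5.07 with a sex term, which is set by the 2 untreated WT mice alone. The WT rise was 1.78 when WT untreated replicate 1 was dropped, 3.13 when replicate 2 was dropped and 3.10 with a sex term, and each of these passed the test. The 2 effects differed by 1.45 ± 0.60, not past the test (adjusted p 0.128). That difference passed with a sex term (1.97, adjusted p 0.0198) and without a count filter (1.49, adjusted p 0.0235). It was 1.96 when WT untreated replicate 1 was dropped, which the sex term repeats, because only untreated WT mice held both sexes. It was 0.61 when WT untreated replicate 2 was dropped and 2.01 when untreated ΔNFκB replicate 2 was dropped. After DSS the genotypes differed by 0.45 ± 0.42 (adjusted p 0.481), although the 2 ΔNFκB mice lay above the 2 WT mice. Without DSS they differed by -0.998 ± 0.43 (adjusted p 0.308), and by -0.20 when WT untreated replicate 2 was dropped, -0.61 without untreated ΔNFκB replicate 1 and -1.60 without untreated ΔNFκB replicate 2. Per 1000 CPM of epithelial markers, Duox2 had 80.0 and 94.5 CPM in ΔNFκB DSS mice and 86.7 and 88.4 in WT DSS mice, which overlap, against 4.88 and 8.62 in untreated ΔNFκB mice and 7.34 and 15.0 in untreated WT mice.

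Duoxa2 had 135 and 166 CPM in ΔNFκB DSS mice, 92.8 and 101 in WT DSS mice, 4.34 and 9.44 in untreated ΔNFκB mice, and 7.90 and 41.0 in untreated WT mice. WT untreated replicate 2 stood above the other 3 untreated mice for both Duoxa2 and Duox2. Duoxa2 rose with DSS by 4.45 ± 0.68 in ΔNFκB mice and by 1.97 ± 0.59 in WT mice (adjusted p 0.00198 and 0.0330). The rise in WT mice was 3.65 without WT untreated replicate 2, which leaves females only, and 1.27 without WT untreated replicate 1. It missed the threshold by DESeq2 (adjusted p 0.0653), in a fit of the 2 WT groups (adjusted p 0.0645) and when any 1 DSS library was dropped (adjusted p 0.0545 to 0.110). With a term for sex the rise was 6.83 in ΔNFκB mice (adjusted p 0.000499) and 3.61 in WT mice, and the ΔNFκB rise was 5.13 when untreated ΔNFκB replicate 2 was dropped. The term for sex is set by the 2 untreated WT mice alone.

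The genotypes differed in Duoxa2 by 0.64 ± 0.56 after DSS and by -1.84 ± 0.66 without DSS (adjusted p 0.454 and 0.247), and the DSS effects differed by 2.48 ± 0.87 (adjusted p 0.0819). The difference of effects passed with a sex term (3.21, adjusted p 0.00431) and without a count filter (2.52, adjusted p 0.00585). It was 3.20 when WT untreated replicate 1 was dropped, which the sex term repeats, and 0.82 when replicate 2 was dropped. The genotype difference after DSS passed in a fit of the 2 DSS groups (0.58, adjusted p 0.0206). The genotype difference without DSS was -0.23 when WT untreated replicate 2 was dropped. It passed the test with a sex term (-2.58, adjusted p 0.0226) and without a count filter (-1.91, adjusted p 0.0341). With WT untreated replicate 1 dropped it was -2.60, which the sex term repeats. Of the exon bases of Duoxa2, 42.8% overlap Duoxa1 on the other strand, but Duoxa1 had at most 0.458 CPM in any library. Duoxa2 counts were 0.147 and 0.145 times those of Duox2 in ΔNFκB DSS mice, 0.120 and 0.137 times in WT DSS mice, 0.0827 and 0.0903 times in untreated ΔNFκB mice, and 0.0895 and 0.183 times in untreated WT mice. Apart from WT untreated replicate 2, each DSS mouse had more Duoxa2 per Duox2 than each untreated mouse.

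The genes nearest to Duox2 in profile, by the same measure, were Slc5a9, Trim40, Steap4, Ddah1 and Ly6c1. The root mean square differences were 0.28 for Slc5a9, a sugar transporter, 0.32 for Trim40, 0.34 for Steap4, a metalloreductase, 0.38 for Ddah1, which degrades methylarginines, and 0.41 for Ly6c1, against an SD of 1.76 for Duox2. Duoxa2, left out of that ranking as a member, lay at 0.35. Slc5a9 averaged 90.2 ± 12.05 CPM in ΔNFκB DSS mice, 75.3 ± 3.02 in WT DSS mice, 5.61 ± 0.689 in untreated ΔNFκB mice and 15.9 ± 10.5 in untreated WT mice.

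Cyba, the membrane partner shared by the Nox1 and the phagocyte oxidase, rose with DSS in both genotypes. It had 42.3 and 43.7 CPM in ΔNFκB DSS mice, 43.4 and 37.9 in WT DSS mice, 19.1 and 14.8 in untreated ΔNFκB mice, and 19.2 and 17.1 in untreated WT mice. The DSS and untreated mice did not overlap, and the genotypes overlapped within each treatment. The rise was 1.34 ± 0.16 in ΔNFκB mice and 1.16 ± 0.16 in WT mice (adjusted p 0.000643 and 0.00132), and the difference between them was 0.18 ± 0.22 (adjusted p 0.590). Dropping 1 library gave rises of 1.19 to 1.55 for ΔNFκB and 1.05 to 1.27 for WT.

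Cybb, the catalytic subunit of the phagocyte oxidase, had 27.6 and 25.04 CPM in ΔNFκB DSS mice, 39.8 and 31.8 in WT DSS mice, 17.8 and 8.46 in untreated ΔNFκB mice, and 12.1 and 11.4 in untreated WT mice. Both DSS groups were above the untreated ones. In ΔNFκB mice Cybb rose by 0.999 ± 0.30 (adjusted p 0.0324), and in WT mice it rose by 1.61 ± 0.30 (adjusted p 0.00502). The ΔNFκB call was lost with a sex term (0.92, adjusted p 0.275) and without either ΔNFκB DSS library (0.94 and 1.09, adjusted p 0.124 and 0.0883), at a change of about the same size. It was also lost without untreated ΔNFκB replicate 2 (0.58, adjusted p 0.0660), and the value was 1.65 without replicate 1. The genotypes differed by -0.44 ± 0.29 after DSS (adjusted p 0.307; 0.0499 in a fit of the 2 DSS groups) and the DSS effects by -0.61 ± 0.42 (adjusted p 0.329; 0.0382 without untreated ΔNFκB replicate 2).

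Ncf1 and Ncf4, cytosolic subunits of the phagocyte oxidase, rose with DSS in WT mice. Ncf1, the phagocyte counterpart of Noxo1, had 11.5 and 7.01 CPM in ΔNFκB DSS mice, 28.8 and 20.3 in WT DSS mice, 8.75 and 5.29 in untreated ΔNFκB mice, and 3.51 and 7.44 in untreated WT mice. WT DSS mice stood alone at the top, and the other 3 groups overlapped. Its log2 change with DSS was 0.39 ± 0.41 in ΔNFκB mice (adjusted p 0.486), and in WT mice it rose by 2.15 ± 0.41 (adjusted p 0.00530). The WT rise was 2.83 when WT untreated replicate 2 was dropped.

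After DSS Ncf1 was lower in ΔNFκB than in WT mice, with a log2 difference of -1.41 ± 0.40 (adjusted p 0.0406). This call was lost when any 1 of the 4 DSS libraries was left out (-1.79 to -1.12, adjusted p 0.0724 to 0.232). The DSS effects of the genotypes differed by -1.75 ± 0.57 (adjusted p 0.0678). That difference passed by DESeq2 (adjusted p 0.0207), without a count filter (adjusted p 0.0146) and when WT untreated replicate 2 was dropped (-2.41, adjusted p 0.0411), and the other libraries dropped gave -2.13 to -1.33. Of the exon bases of Ncf1, 11.1% overlap Gtf2ird2 on the other strand, which had at most 7.65 CPM. Within a library Ncf1 counts were 0.416 and 0.280 times those of Cybb in ΔNFκB DSS mice, 0.723 and 0.640 times in WT DSS mice, 0.491 and 0.625 times in untreated ΔNFκB mice, and 0.291 and 0.653 times in untreated WT mice. The ratio was lower in both ΔNFκB DSS mice than in both WT DSS mice, and untreated WT mice spanned most of the range.

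Ncf4, which modulates the phagocyte oxidase, had 6.35 and 3.92 CPM in ΔNFκB DSS mice, 15.0 and 10.99 in WT DSS mice, 3.08 and 1.30 in untreated ΔNFκB mice, and 1.28 and 2.35 in untreated WT mice. Again WT DSS mice were highest, ΔNFκB DSS mice came next, and the untreated groups overlapped. Its change with DSS was 1.22 ± 0.46 in ΔNFκB mice (adjusted p 0.0702), with 0.76 when untreated ΔNFκB replicate 2 was dropped. The change passed the test when untreated ΔNFκB replicate 1 was dropped (1.99, adjusted p 0.0342) and without a count filter (1.25, adjusted p 0.0228). Ncf4 rose by 2.82 ± 0.45 in WT mice (adjusted p 0.00274). Between the genotypes after DSS it stood at -1.34 ± 0.42 (adjusted p 0.0576). That difference passed the test by DESeq2 (adjusted p 0.0385), by limma-voom (0.0382), without a count filter, with only the 2 groups, with a sex term and when any 1 untreated library was dropped (adjusted p 0.0120 to 0.0471 over these), at -1.39 to -1.34. The smallest Ncf4 count was 16 in a library, with an exact 95% Poisson interval of 9.15 to 26.0 counts, which covers counting error only. For Duox2 in the DSS libraries the same interval was within 2.19% of the count.

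**Figure D3:**
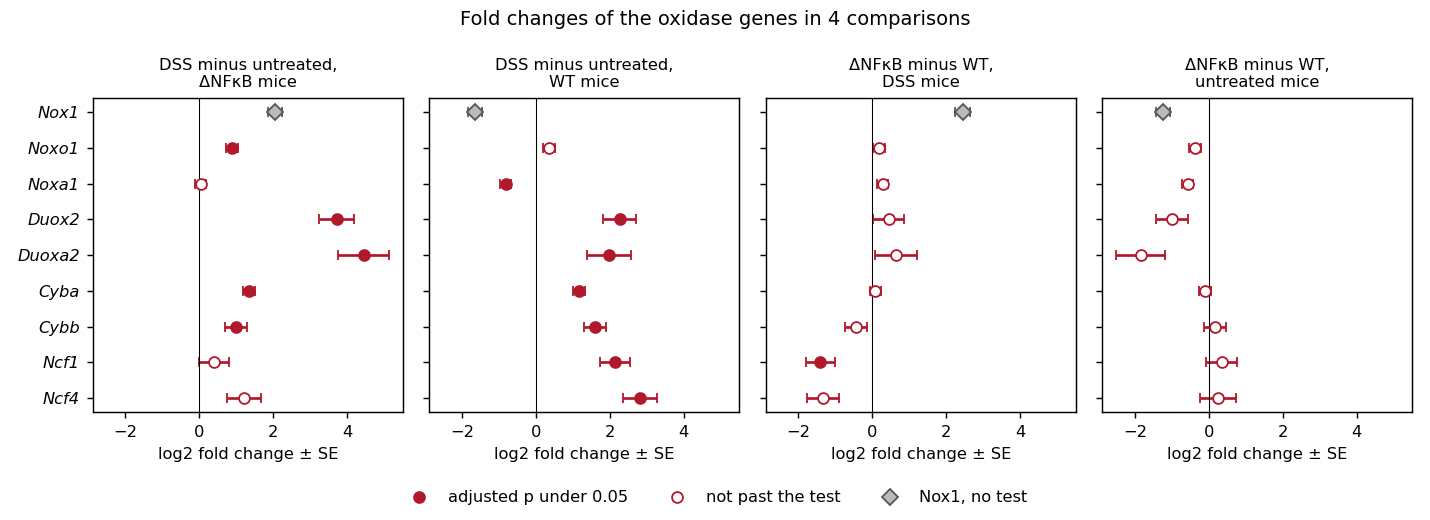
Log2 fold change ± SE (horizontal axis) of each gene in 4 comparisons from the fit of all 8 libraries; filled circles passed the test, open circles did not, and the grey diamonds are Nox1, which has no test. With DSS, Duox2 and Duoxa2 lie right of 0 in both genotypes, while Nox1 lies at 2.05 in ΔNFκB mice and at -1.64 in WT mice.

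Neutrophil markers were read beside Cybb, Ncf1 and Ncf4. The 10 neutrophil markers summed to 104 and 109 CPM in ΔNFκB DSS mice, 369 and 559 in WT DSS mice, 20.0 and 1.87 in untreated ΔNFκB mice, and 2.47 and 3.96 in untreated WT mice, where 4 of the 10 were at 0 in both libraries: Retnlg, Mmp8, Ngp and Camp. Of the 9 tested, 8 rose with DSS in ΔNFκB mice and 9 in WT mice, and 8 were lower in ΔNFκB than in WT mice after DSS. Within both DSS groups the mouse with more neutrophil markers had less Cybb, Ncf1 and Ncf4, though the 2 ΔNFκB sums were close. Within both untreated groups the mouse with more neutrophil markers had more Ncf1 and Ncf4. Its Cybb was the higher one in untreated ΔNFκB mice and the lower one in untreated WT mice. The 10 monocyte and macrophage markers, among them Csf1r and C1qa, summed to 191 to 192 CPM in ΔNFκB DSS mice, 272 to 280 in WT DSS mice, 166 to 171 in untreated ΔNFκB mice and 164 to 220 in untreated WT mice. Of these 10, 2 rose with DSS in ΔNFκB mice (median -0.06) and 1 in WT mice (median 0.54), and 1 was lower in ΔNFκB than in WT mice after DSS. B cells also carry this oxidase, and 8 B cell markers, Ms4a1 among them, summed to 117 and 2.68 CPM in ΔNFκB DSS mice, 258 and 124 in WT DSS mice, 98.7 and 25.3 in untreated ΔNFκB mice, and 4.55 and 83.4 in untreated WT mice. Within each group the mouse with more B cell markers also had more Ncf1 and more Ncf4. Cybb went the same way except in untreated WT mice, where that mouse had 11.4 CPM against 12.1. Each of these orders rests on 2 mice. The part of these cells in the values of Cybb, Ncf1 and Ncf4 was not tested.

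**Figure D4:**
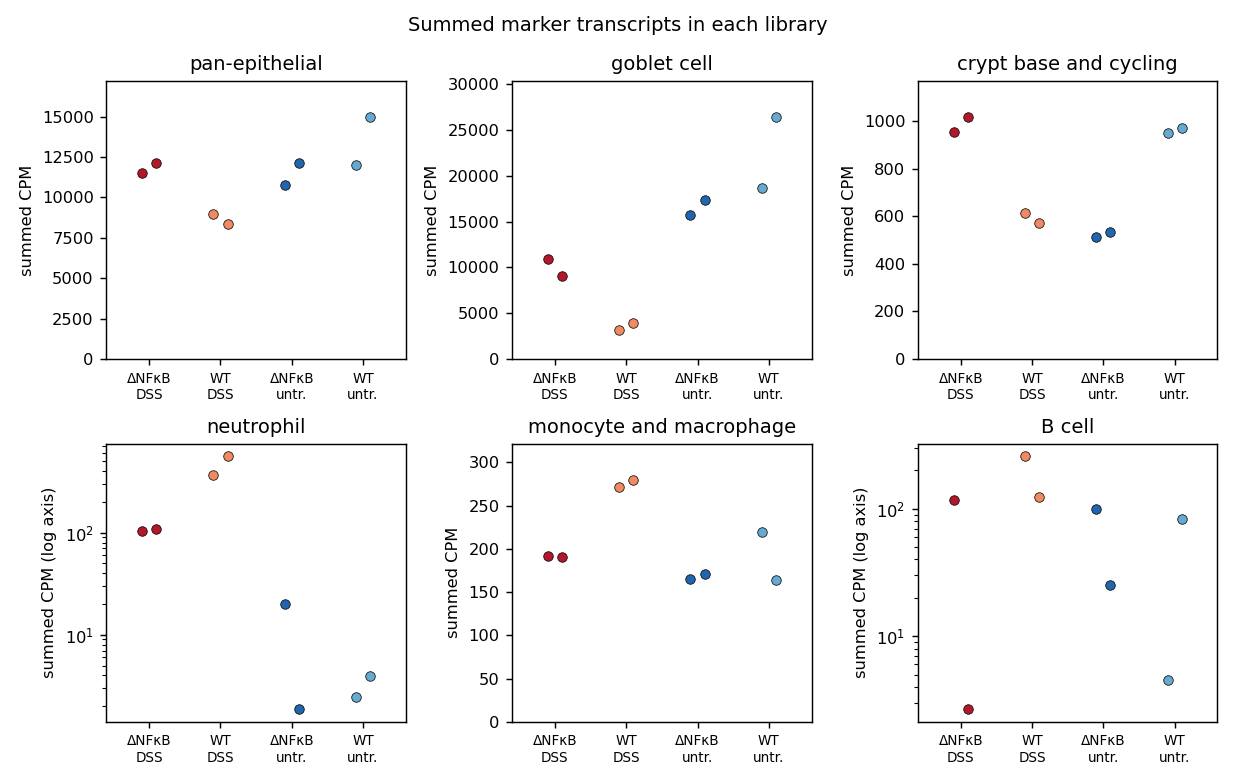
Summed CPM of fixed marker lists in each library, 1 point per mouse; axes are linear from 0 except for neutrophil and B cell markers, which are on log axes. Crypt base and cycling markers are 955 and 1017 CPM in ΔNFκB DSS mice and 514 and 536 CPM in untreated ΔNFκB mice, and neutrophil markers are 369 and 559 CPM in WT DSS mice.

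Counted over the 8 members other than Nox1, 5 rose and 0 fell with DSS in ΔNFκB mice by edgeR (6 and 0 at an unadjusted p under 0.05; DESeq2 and limma-voom also gave 0 lower), where 35.4% of all tested genes changed, 16.2% upwards and 19.2% downwards. In WT mice 6 rose and 1 fell, where 36.0% of all genes changed, 17.2% upwards and 18.8% downwards. The median log2 change of the 8 was 1.11 in ΔNFκB mice and 1.79 in WT mice, against -0.04 and 0.00 over all genes. Between the genotypes after DSS 1 of the 8 passed the test, and it was lower, against 20.0% of all genes (8.32% higher and 11.7% lower). Without DSS 0 of the 8 passed the edgeR test, nor by DESeq2 or limma-voom, with 3 lower at an unadjusted p under 0.05, and 0.388% of all genes did (0.0399% higher and 0.348% lower). In the difference of DSS effects 1 of the 8 passed, against 17.7% of all genes (8.63% higher and 9.07% lower). The DSS and genotype comparisons share libraries, so these counts are not independent of each other.

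Levels between genes were compared per kilobase of exon. Genes on the other strand share 70.4% of the exon bases of Noxo1 and 42.8% of those of Duoxa2. Strand use in counting is not given, so the places of these genes below are uncertain. In ΔNFκB DSS mice Duox2 had 153 ± 23.6 CPM per kb, Duoxa2 94.5 ± 13.7, Cyba 41.4 ± 0.942, Nox1 38.8 ± 4.23, Noxo1 29.9 ± 2.97 and Noxa1 14.1 ± 1.24, and only Cyba and Nox1 lay within their spread. In WT DSS mice Duox2 had 112 ± 3.93 CPM per kb, Duoxa2 60.9 ± 3.64, Cyba 39.1 ± 3.71, Noxo1 26.5 ± 0.261, Noxa1 11.5 ± 0.146 and Nox1 7.14 ± 0.972, each farther from its neighbour than their spread. In untreated ΔNFκB mice the order was Cyba at 16.3 ± 2.91 CPM per kb, Noxo1 at 16.2 ± 3.87, Noxa1 at 13.7 ± 0.0190, Duox2 at 11.6 ± 5.43, Nox1 at 9.39 ± 2.35 and Duoxa2 at 4.33 ± 2.27; of these neighbours only Nox1 and Duoxa2 differed by more than either SD. In untreated WT mice Duox2 had 23.1 ± 14.2 CPM per kb, Nox1 22.2 ± 1.74, Noxo1 20.8 ± 1.02, Noxa1 20.4 ± 3.04, Cyba 17.5 ± 1.40 and Duoxa2 15.4 ± 14.7, with each neighbour within the larger SD. Cybb, Ncf1 and Ncf4 were at most 6.70 ± 1.63 CPM per kb (Ncf1 in WT DSS mice), where Ncf1, Ncf4 at 6.42 ± 1.39, Cybb at 6.16 ± 0.975 and Nox1 lay within their spread.

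Other oxidase genes were followed in a list of 13, of which Duoxa1, Nox3, Mpo and Epx were too low to test. Of the 9 tested, 4 rose and 2 fell with DSS in ΔNFκB mice, and 2 rose and 1 fell in WT mice; their median log2 changes were 0.57 and 0.65. For this list and those that follow, the shares over all genes tested were 16.2% higher and 19.2% lower in ΔNFκB mice. In WT mice they were 17.2% higher and 18.8% lower. Rac1, the GTPase that activates Nox1, rose by 0.83 ± 0.12 in ΔNFκB mice (adjusted p 0.00148), stood at 0.20 ± 0.12 in WT mice (adjusted p 0.211), and the effects differed by 0.63 ± 0.17 (adjusted p 0.0373). Rac1 averaged 483 ± 25.8 CPM in ΔNFκB DSS mice, 347 ± 17.97 in WT DSS mice, 271 ± 22.1 in untreated ΔNFκB mice and 302 ± 11.4 in untreated WT mice.

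Rac2, the GTPase of blood cells, rose in WT mice by 2.32 ± 0.63 (adjusted p 0.0228). Of the 9 genes tested only Rac1 passed in the difference of DSS effects, against 17.7% of all genes. Changes given for 1 genotype in this list are therefore not shown to differ between the genotypes. Rap1a, a GTPase found with the phagocyte oxidase, fell by 0.47 on the log2 scale in ΔNFκB mice and by 0.81 in WT mice (adjusted p 0.0158 and 0.00174). Lpo, a peroxidase that uses hydrogen peroxide, rose in ΔNFκB mice by 1.14 ± 0.29 (adjusted p 0.0167), with 22.5 ± 0.311 CPM in ΔNFκB DSS mice and 10.2 ± 2.04 CPM in untreated ΔNFκB mice. It averaged 33.4 ± 14.6 CPM in WT DSS mice and 21.3 ± 0.159 CPM in untreated WT mice. The close relatives of the members were near the floor of 3 counts (0.201 to 0.309 CPM): Duox1 averaged at most 2.06 ± 0.299 CPM, in ΔNFκB DSS mice, and Nox4 at most 1.13 ± 0.478 CPM, in untreated ΔNFκB mice. Duox1 rose and Nox4 fell in ΔNFκB mice (log2 change 1.75 ± 0.57 and -1.83 ± 0.60, adjusted p 0.0439 and 0.0450). Hvcn1, a proton channel that sustains the phagocyte oxidase, and Cybc1, which helps Cybb mature, passed the test in 0 of the 5 edgeR comparisons (unadjusted p 0.0592 to 0.764 for Hvcn1 and 0.696 to 0.954 for Cybc1).

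The enzymes that remove peroxide and superoxide did not move as 1 group. Of 20 genes tested, 4 rose and 5 fell with DSS in ΔNFκB mice, and 5 rose and 9 fell in WT mice, with medians of -0.05 and -0.37. Gpx2, the gut epithelial glutathione peroxidase, averaged 638 ± 14.1 CPM in ΔNFκB DSS mice, 473 ± 97.2 in WT DSS mice, 145 ± 22.9 in untreated ΔNFκB mice and 290 ± 47.7 in untreated WT mice. It rose in ΔNFκB mice by 2.14 ± 0.19 (adjusted p 0.000271), and both WT DSS mice also lay above both untreated WT mice. Txnrd1, a thioredoxin reductase, rose by 1.51 ± 0.12 in ΔNFκB mice and by 1.29 ± 0.12 in WT mice (adjusted p 0.000159 and 0.000240). Catalase, Cat, fell by 1.06 on the log2 scale in ΔNFκB mice and by 1.05 in WT mice (adjusted p 0.000984 and 0.00116). The effects of DSS differed between the genotypes for 9 of the 20, higher in ΔNFκB mice for 7, among them Prdx1, a peroxiredoxin, by 1.20 ± 0.20 (adjusted p 0.0103). Over all genes tested 17.7% differed, 8.63% higher and 9.07% lower.

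NADPH is the electron donor of all these oxidases. Of 10 genes listed around its supply, 6 rose and 0 fell with DSS in ΔNFκB mice (0 lower also at an unadjusted edgeR p under 0.05). In WT mice 1 rose and 3 fell. The medians over the 10 were 0.54 in ΔNFκB mice and -0.31 in WT mice. Some of the 10, Tkt among them, encode enzymes that do not form NADPH. Pgd, of the pentose phosphate pathway, rose by 1.31 ± 0.15 in ΔNFκB mice and by 0.64 ± 0.15 in WT mice (adjusted p 0.000661 and 0.0140). Tkt, transketolase, averaged 245 ± 12.1 CPM in ΔNFκB DSS mice, 165 ± 6.47 in WT DSS mice, 148 ± 0.838 in untreated ΔNFκB mice and 207 ± 2.38 in untreated WT mice, and its DSS effects differed by 1.05 ± 0.14 (adjusted p 0.00719). After DSS 4 of the 10 were higher in ΔNFκB than in WT mice and 0 lower, against 8.32% higher and 11.7% lower over all genes tested. The pan-epithelial markers moved the same way after DSS, with 5 of 10 higher in ΔNFκB mice and 0 lower, and their part was not tested.

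Of 10 targets of the oxidant sensor Nrf2, 6 rose and 0 fell with DSS in ΔNFκB mice, and 3 rose and 2 fell in WT mice. Hmox1, heme oxygenase, averaged 8.74 ± 0.763 CPM in ΔNFκB DSS mice, 32.3 ± 4.47 in WT DSS mice, 4.31 ± 1.04 in untreated ΔNFκB mice and 3.73 ± 0.418 in untreated WT mice. It rose by 1.01 ± 0.23 in ΔNFκB mice (adjusted p 0.00972), with a WT rise of 3.11 ± 0.22 (adjusted p 0.000123), and was lower in ΔNFκB than in WT mice after DSS, at -1.88 ± 0.21 (adjusted p 0.00261). Of the 10 targets, 3 were higher and 2 lower in ΔNFκB than in WT mice after DSS (8.32% and 11.7% over all genes tested). The DSS effects were higher in ΔNFκB mice for 4 of the 10 and lower for 1 (8.63% and 9.07% over all genes tested). Slc7a11, the cystine transporter, rose by 2.25 ± 0.32 in ΔNFκB mice and by 3.16 ± 0.32 in WT mice (adjusted p 0.00148 and 0.000379). Txnrd1 and G6pdx, which feeds the pentose phosphate pathway, also stand in the lists above.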

How the data were processed

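Total RNA from distal colon of 8 mice was sequenced with paired reads of 150 bp. Per the submitters' processing notes, HISAT2 2.1, SAMtools 1.8, featureCounts and Subread 1.6.2 were used with mm10. The sources used here name no annotation release, strand option or rule for multi-mapped reads. The 2 deposited tables hold expected counts per gene without normalization by the authors: 18.8% of values above 0 have a fractional part (no tolerance), and 0 values differ between the tables. Whole counts had been planned for; values were instead rounded after summing the 115 symbols with more than 1 line. Gene positions and exon lengths come from GENCODE vM21 (GRCm38), which holds 55450 of the 55536 identifiers, all with the same symbol.

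The fit used filterByExpr, TMM factors (0.882 to 1.15), 4 group means and 4 residual degrees of freedom in edgeR 4.0.16 on R 4.3.3; each SE is |log2 fold change| divided by √F. It was tested on simulated data. With 2 mice a group the smallest exact permutation p is 0.333, so no such test is given. Sex was read as male above a sum of 5 CPM of Y-linked transcripts. Members, marker lists and pathway lists were chosen with earlier results of these data known. The genes named are the members, all of the other oxidase list, up to 3 genes with the smallest p of each further pathway list and the 5 nearest profiles of Nox1 and Duox2; some genes that this rule names are not reported here. Alternatives used DESeq2 1.42.0 and limma 3.58.1, other factors, filters and tables, a replicate block, only the 2 groups compared, a sex term, abundant RNA classes left out, scaling to epithelial markers and each library left out; a group left with 1 mouse is assumed to vary like the others.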

Additional observations from a re-analysis of the deposited data

Results flagged for a closer look

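Nox1, without a test, and Noxa1, as 1 of the 8 genes tested, were flagged for DSS effects that differed between the genotypes. Over all genes tested 17.7% passed this comparison. For Nox1 the difference of the DSS effects was 3.68 ± 0.26 on the log2 scale, because both ΔNFκB DSS mice lay above both untreated ΔNFκB mice while both WT DSS mice lay below both untreated WT mice. The gene was chosen for this pattern, so the difference was not tested. Its range of 3.44 to 3.95 with 1 library left out is a description too, because the choice of the gene favours a steady value. For Noxa1 the difference was 0.86 ± 0.21 (edgeR, adjusted p 0.0294). It ran from 0.69 to 0.99 with 1 library left out, and the call depended on single libraries, as given above. Per 1000 CPM of epithelial markers the log2 difference of Noxa1 with DSS was -0.0097 in ΔNFκB mice and -0.18 in WT mice. Noxa1 was higher in the 2 untreated WT mice (36.4 and 29.4 CPM) than in any other mouse (18.5 to 24.2 CPM).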

How the results depend on the processing

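The genes called with DSS in ΔNFκB mice (6199) became 3343 with a sex term and 3373 to 6548 with 1 library left out; in WT mice (6315) they became 3298 to 6228 with 1 left out. For the genotypes after DSS (3499) the range was 484 to 3781, for the difference of DSS effects (3102) 489 to 3669, and for the genotypes without DSS (68) 0 to 200. The last count was 264 by DESeq2, 330 without a count filter, 176 with a sex term, and 0 with a replicate block or with only the 2 groups compared. The r of deviations of same-numbered mice across genes was -0.126 to 0.244, and the numbers were not used to pair the mice in the main fit. With so few mice this cannot exclude a shared litter, cage or batch. The replicate block changed no count of oxidase genes called.

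Of the 8 oxidase genes tested, the number called after DSS between genotypes (1) was 2 by DESeq2, by limma-voom, without a count filter and with a sex term, 4 with only the 2 groups compared, and 0 to 2 with 1 library left out. Without DSS (0) it was 1 without a count filter or with a sex term, and 0 to 1 with 1 left out. For the difference of DSS effects (1) it was 2 by DESeq2, 4 without a count filter, 3 with a sex term and 0 to 3 with 1 left out. The counts with DSS stayed within 4 to 6 in ΔNFκB mice and 6 to 8 in WT mice with 1 left out.

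Changes of sign were limited to values not past the test. With DSS in ΔNFκB mice Noxa1 was -0.0127 with upper quartile factors, -0.26 with a sex term and -0.0423 to 0.16 with 1 library left out. Without DSS the genotype values of Ncf1 and Ncf4 were -0.0830 and -0.0967 with a sex term, and with 1 left out they ran from -0.11 to 0.97 for Ncf1, -0.52 to 0.75 for Ncf4, -0.32 to 0.0489 for Cyba and -0.50 to 0.58 for Cybb. After DSS Cyba ran from -0.0046 to 0.20, and in the difference of effects from -0.0045 to 0.36, with Cybb from -1.06 to 0.0153. Per epithelial marker, the genotype value after DSS turned to -0.28 for Noxo1, -0.0099 for Duox2, -0.37 for Cyba and -0.17 for Noxa1. The cause was not tested. Low counts limit Ncf4 most.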

Other observations

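Hvcn1 and Rac2, which serve the oxidase of blood cells, varied between the 2 mice of each group. Hvcn1 had 12.1 and 2.06 CPM in ΔNFκB DSS mice, 41.7 and 21.3 in WT DSS mice, 17.6 and 3.99 in untreated ΔNFκB mice, and 2.47 and 14.9 in untreated WT mice. Rac2 had 20.5 and 10.3 CPM in ΔNFκB DSS mice, 46.0 and 35.0 in WT DSS mice, 16.6 and 4.07 in untreated ΔNFκB mice, and 4.55 and 11.5 in untreated WT mice. In each group the mouse with more Hvcn1 also had more Rac2, and it was the mouse with the higher sum of B cell markers.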
